A study of Homo sapiens with 8 samples.

Results

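The question asked of these arrays was how far the response of A172 cells to doxycycline differs between cells whose shRNA, switched on by doxycycline, targets HDAC2 (shHDAC2) and cells that carry a control shRNA (shControl). A172 is an established human glioblastoma line. The doxycycline response of the shControl cells was subtracted from that of the shHDAC2 cells, gene by gene, and the remainder is called the difference below. A positive difference means that a gene moved further up, or less far down, upon doxycycline in shHDAC2 cells than in shControl cells. The difference was taken for the 16098 transcript clusters, of 53617 on the array, that carry exactly 1 gene symbol, and these clusters stand for 14884 genes.

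RNA was hybridized to Affymetrix Human Gene 2.0 ST arrays, which read transcripts by hybridization and report a log2 signal. The 4 groups were shHDAC2 DOX(+), shHDAC2 DOX(-), shControl DOX(+) and shControl DOX(-), with 2 arrays each, titled as biological replicates. DOX(+) cells had doxycycline for the last 2 days before harvest and DOX(-) cells had none. All 8 samples are A172 cells infected with a Tet-on lentiviral vector and selected with puromycin as stable cells, and no parental A172 cells were measured. In another field of the labels, both shHDAC2 DOX(-) and both shControl DOX(+) samples name the other construct, and the groups here follow the titles and the treatment field. If the arrays of these 2 groups were exchanged, the difference would by arithmetic stay the same, but each response would become another contrast. Nothing in the labels says whether the replicates came from separate cultures, so the p-values measure the spread between these arrays. The RNA is from whole cultures, in which fewer cells of a kind and less RNA per cell cannot be told apart.

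HDAC2 is a class I histone deacetylase. It removes acetyl groups from histone tails and acts in the SIN3, NuRD and CoREST complexes, which restrain transcription at many genes. In a Tet-on vector a repressor holds the shRNA promoter silent until doxycycline binds it, so doxycycline is given to control cells as well, since the drug itself can alter cells, mitochondrial translation among other processes. Subtracting the response of the control cells is meant to remove that shared component. The difference is also, by arithmetic, the gap between shHDAC2 and shControl cells with doxycycline minus the gap without it, so it holds whatever set both lines apart before the drug was given.

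HDAC2 itself (transcript cluster 17022854) had log2 signals of 4.95 and 5.34 in shHDAC2 DOX(+), 5.69 and 5.80 in shHDAC2 DOX(-), 6.14 and 6.15 in shControl DOX(+), and 6.42 and 6.30 in shControl DOX(-). The groups do not overlap, and both shHDAC2 groups lay below both shControl groups. The difference was -0.38 on the log2 scale (SE 0.201, adjusted p = 0.243 from limma), which did not pass the test. Leaving out shHDAC2 DOX(+) replicate 1 gave -0.19, and leaving out replicate 2 of that group gave -0.58. As titled, HDAC2 had a response of -0.60 in shHDAC2 cells, which passed (adjusted p = 0.0115 from limma). Its response in shControl cells was -0.21 and did not pass (adjusted p = 0.956). The gap, shHDAC2 over shControl, passed both with doxycycline (-0.999, adjusted p = 0.00858) and without it (-0.61, adjusted p = 0.0101). The arrays of shHDAC2 DOX(-) stood apart from the other 6, with Pearson correlations across clusters of 0.95 to 0.9538 with them, against 0.982 or more among those 6. The pairs of replicates correlated at 0.9855 to 0.9884, and the array medians lay between 3.638 and 3.676.

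By limma, the doxycycline responses of shHDAC2 and shControl cells differed in 3156 clusters at an adjusted p under 0.05, which is 19.6% of those tested. In 1540 of them (9.57%) the difference was positive and in 1616 (10.0%) it was negative. The response of shHDAC2 cells alone passed in 4931 clusters (30.6%). The response of shControl cells passed in 0 (0.0%), with 868 clusters at an unadjusted p under 0.05 by limma and 973 by the methods' t-test. These response counts rest on the titles. With shHDAC2 DOX(-) and shControl DOX(+) exchanged, they would be 590 for shHDAC2 cells and 4831 for shControl cells, and the 3156 differences would be the same. Over all clusters the middle value of the difference was -0.01, with quartiles of -0.29 and 0.26. Among the 3156 clusters the median size of the response was 0.95 in shHDAC2 cells and 0.11 in shControl cells. The plot of the responses against each other shows the points stretched along the axis of the shHDAC2 response.

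**Figure D1:**
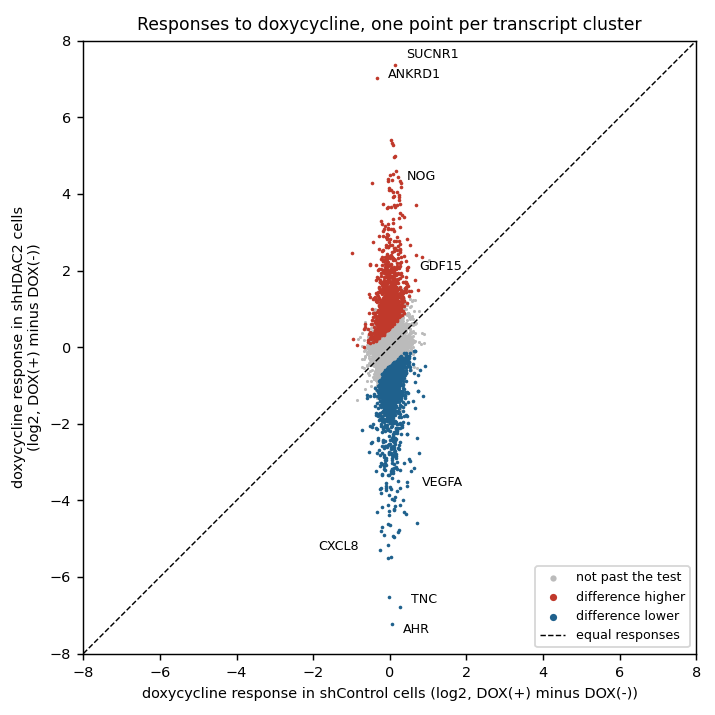
Doxycycline response of each of the 16098 transcript clusters, with the log2 response of shControl cells on the horizontal axis, that of shHDAC2 cells on the vertical axis, and the dashed line where both are equal. Coloured points are the 1540 clusters whose difference was positive and the 1616 whose difference was negative by limma; no shControl response exceeded 1.02 in size, while those of shHDAC2 cells reached beyond 7.

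The sizes ran from 0.48, the smallest difference that passed, to beyond 7. Of the 3156 clusters, 1506 differed by at least 1 on the log2 scale, 354 by at least 2 and 51 by at least 4. Of these 51, 20 were positive and 31 negative. The SE of a difference had a median of 0.192, against 0.136 for a single response, since 4 group means enter the difference. Calls were unevenly spread over signal. Of the 4025 clusters with the lowest mean signal 5.09% passed, 50 positive and 155 negative, and of the 4025 with the highest mean signal 34.5% passed, 807 positive and 582 negative. Protein-coding genes passed in 22.5% of their 12694 clusters, long non-coding RNA genes in 8.78% of 1595 and microRNA genes in 5.34% of 1236.

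Which group carried the difference could be read from the arrays directly. Both shHDAC2 DOX(+) arrays lay outside the range of the other 6 in 15.8% of all clusters, and both shHDAC2 DOX(-) arrays did so in 40.3%. The same share was 9.29% for shControl DOX(+) and 7.39% for shControl DOX(-). Among the 3156 clusters whose responses differed, the shHDAC2 DOX(+) arrays lay outside the other 6 in 1007 (31.9%) and the shHDAC2 DOX(-) arrays in 2925 (92.7%). The shControl DOX(+) arrays did so in 249 (7.89%) and the shControl DOX(-) arrays in 322 (10.2%). These clusters were chosen on the same arrays, so the shares describe them and test nothing. Between shHDAC2 and shControl cells, 590 clusters (3.67%) differed with doxycycline and 4831 (30.0%) differed without it, by limma. What set the shHDAC2 DOX(-) arrays apart was not tested, and its part in each difference below cannot be told apart from a response to doxycycline.

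**Figure D2:**
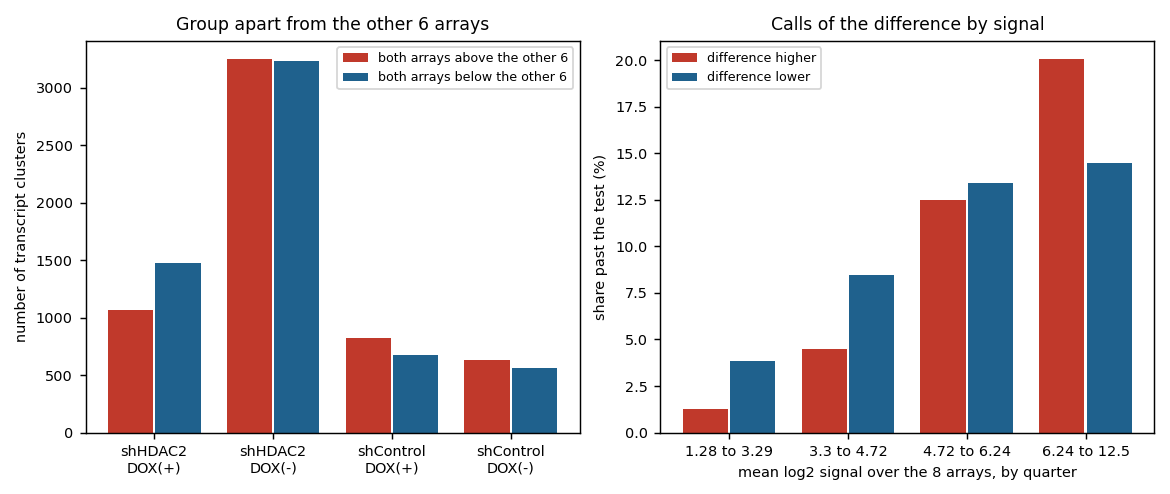
Left, number of the 16098 clusters in which both arrays of a group lay above or below all 6 other arrays, with shHDAC2 DOX(-) highest at 3246 above and 3236 below. Right, share of clusters in % whose difference passed, in each direction, in 4 equal classes of mean log2 signal over the 8 arrays, greater in each class than in the one of lower signal in both directions.

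The positive difference was largest for ANKRD1 (cluster 16716478), an ankyrin repeat protein and a well-known target of the YAP and TEAD transcription factors. Its log2 signals were 10.08 and 9.99 in shHDAC2 DOX(+), 2.87 and 3.14 in shHDAC2 DOX(-), 9.23 and 9.02 in shControl DOX(+), and 9.59 and 9.32 in shControl DOX(-). Signal was thus high on 6 arrays and low on the 2 shHDAC2 DOX(-) arrays. The difference was 7.37 (SE 0.207, adjusted p = 3.24e-07 from limma), made of a response of 7.04 in shHDAC2 cells and of -0.33 in shControl cells. Between the lines on doxycycline, shHDAC2 over shControl, ANKRD1 had a gap of 0.92 (adjusted p = 0.0128). The ANKRD1 promoter is shown because this gene had the largest positive difference and is a named TEAD target. It spans 250 bases before to 50 after the start in RefSeq's GRCh38.p14 annotation, with each match of the TEAD motif GGAATG on either strand in capitals, at positions -220 and -128 from the start.
ANKRD1 promoter, chr10:90921038-90921337, minus strand: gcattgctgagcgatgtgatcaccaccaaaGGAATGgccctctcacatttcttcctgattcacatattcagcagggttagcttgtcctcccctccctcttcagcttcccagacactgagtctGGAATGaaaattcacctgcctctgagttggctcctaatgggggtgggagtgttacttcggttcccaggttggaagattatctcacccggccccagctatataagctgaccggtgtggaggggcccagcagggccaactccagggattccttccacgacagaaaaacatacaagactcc
This motif occurred in 11.7% of the 10749 promoters of that length that matched a measured gene. It occurred in 10.0% of the 1175 of genes with a positive difference and in 11.6% of the 1218 of genes with a negative one. The same window of SUCNR1, the next largest positive difference, held 0 matches. Those of AHR and EREG, which had negative differences, do hold these letters on 1 or the other strand. A match is a description of the letters and not a measured binding site.

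SUCNR1, the receptor for succinate, came next, with log2 signals of 9.69 and 9.62 in shHDAC2 DOX(+), 2.23 and 2.33 in shHDAC2 DOX(-), 10.81 and 10.49 in shControl DOX(+), and 10.64 and 10.36 in shControl DOX(-). It was again low in shHDAC2 DOX(-) only, and the difference was 7.22 (SE 0.204, adjusted p = 3.24e-07 from limma). On doxycycline SUCNR1 was lower in shHDAC2 cells than in shControl cells (adjusted p = 0.00869). CAVIN2, which shapes the plasma membrane pits called caveolae, had 9.15 and 9.27 in shHDAC2 DOX(+), 3.96 and 3.78 in shHDAC2 DOX(-), 8.86 and 8.85 in shControl DOX(+), and 8.80 and 8.79 in shControl DOX(-), a difference of 5.28 (SE 0.158, adjusted p = 4.24e-07). LRRC17, a secreted leucine-rich repeat protein, differed by 5.38, ADGRG6, an adhesion G protein-coupled receptor needed for myelination by Schwann cells, by 5.19, and NFE2L3, a transcription factor related to NRF2, by 4.86. MKX, a homeobox factor of tendon cells, differed by 4.85, HOXB5 by 4.48 and TOX, an HMG-box factor known from T cells, by 4.44. The microRNA gene MIR4436A had signals of 1.67 and 3.74 in shHDAC2 DOX(-), so that its difference of 4.73 had an SE of 0.783. Of these genes HOXB5 had 7.84 and 7.82 in shHDAC2 DOX(+), 3.21 and 3.48 in shHDAC2 DOX(-), 7.95 and 7.80 in shControl DOX(+), and 7.95 and 7.78 in shControl DOX(-).

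The negative difference was largest for AHR (cluster 17043856), the aryl hydrocarbon receptor, a ligand-activated transcription factor that senses dioxins and tryptophan metabolites. AHR had log2 signals of 2.74 and 2.77 in shHDAC2 DOX(+), 9.95 and 10.01 in shHDAC2 DOX(-), 2.76 and 2.64 in shControl DOX(+), and 2.65 and 2.65 in shControl DOX(-). It was near the bottom of the scale on 6 arrays and high on the other 2. The difference was -7.27 (adjusted p = 8.08e-08 from limma). TNC, the matrix protein tenascin C, had 3.41 and 3.84 in shHDAC2 DOX(+), 10.43 and 10.36 in shHDAC2 DOX(-), 4.16 and 4.30 in shControl DOX(+), and 4.21 and 3.71 in shControl DOX(-). Its difference was -7.05 (SE 0.267, adjusted p = 9.71e-07). MT1F, a metallothionein that binds zinc and copper, had 3.19 and 2.98 in shHDAC2 DOX(+), 9.66 and 9.56 in shHDAC2 DOX(-), and 2.94 to 3.05 on the 4 shControl arrays, a difference of -6.49 (SE 0.166). In all 3 genes the groups other than shHDAC2 DOX(-) lay within 1 log2 unit of each other.

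The other genes among the 10 lowest were EREG, an EGFR ligand (-5.51), GREM1, a secreted BMP antagonist (-5.44), C3, the central complement component (-5.31), C1orf94 (-5.11), ADAM12, a membrane metalloprotease (-5.05), UGT8, a galactosyltransferase of myelin lipid synthesis (-5.04), and MT1L (-5.03). C3 had 4.11 and 4.45 in shHDAC2 DOX(+), 8.86 and 8.88 in shHDAC2 DOX(-), 5.15 and 5.28 in shControl DOX(+), and 4.40 and 4.60 in shControl DOX(-). Its shControl response of 0.71 did not pass (adjusted p = 0.595 from limma), and the gap between the lines on doxycycline was -0.93 (adjusted p = 0.0107). Many of these genes had 3 group means near or below the median of all values, 3.658, where a log2 signal may not track RNA amount, so the sizes of the largest differences are uncertain. Among genes whose 4 group means were all at or above that median, the lowest differences after GREM1 and C3 were those of DDIT4, an inhibitor of mTORC1 induced by stress (-4.67), TFPI2, a secreted protease inhibitor (-4.63), the forkhead factor FOXL1 (-4.57) and the chromatin protein HMGA2 (-4.56). The highest in that class were CAVIN2, MKX, TOX, NID1 (4.43), PKP2 (4.42) and UNC13D, a factor of granule exocytosis (4.38).

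**Figure D3:**
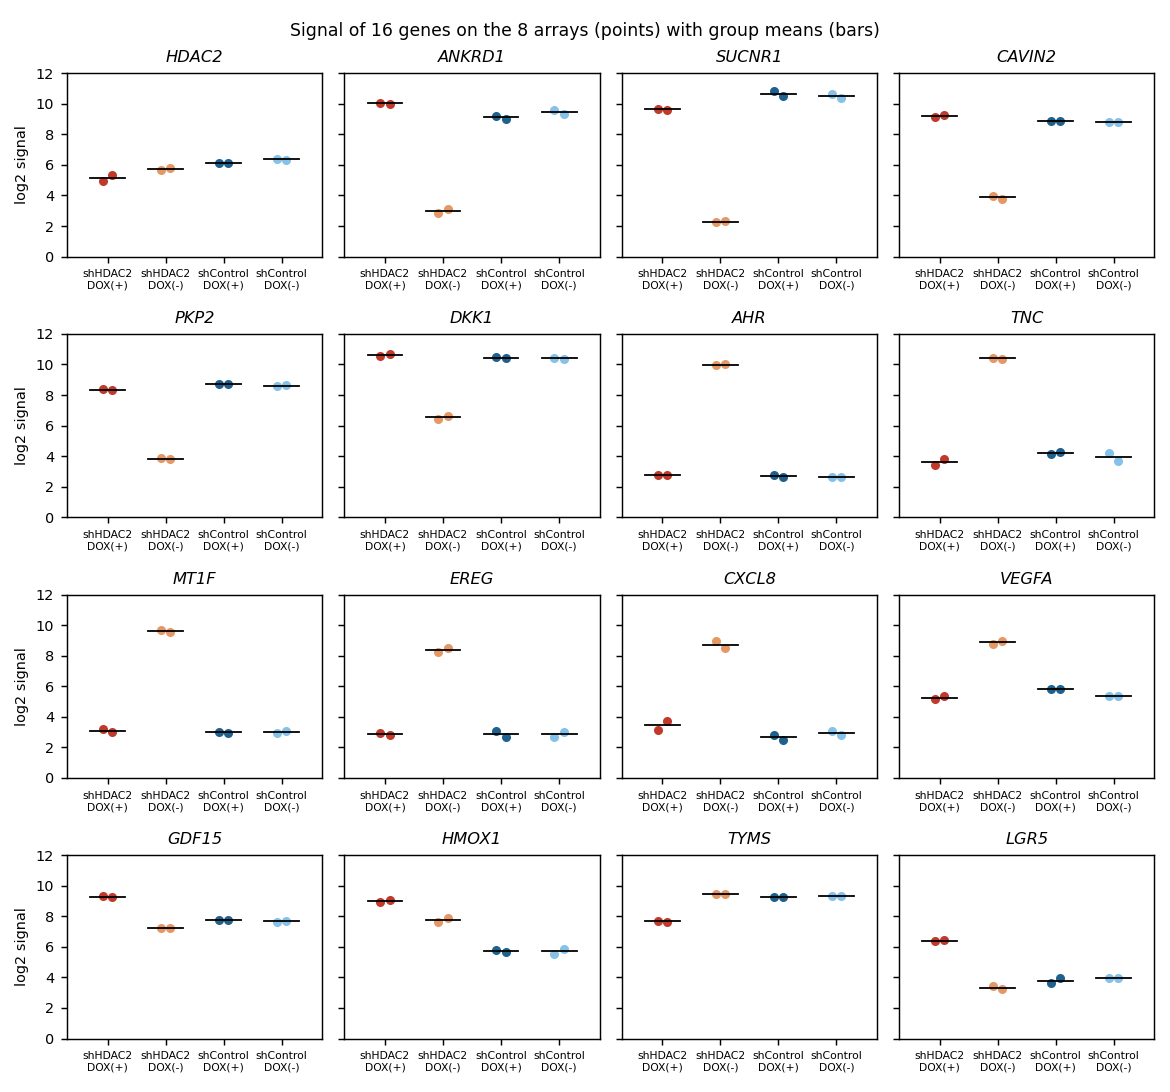
Log2 signal of 16 genes on the 8 arrays, 2 points per group with a bar at the group mean, on one scale of 0 to 12. ANKRD1, SUCNR1, CAVIN2, PKP2 and DKK1 were low and AHR, TNC, MT1F, EREG, CXCL8 and VEGFA high in shHDAC2 DOX(-) alone, while LGR5 was high and TYMS low in shHDAC2 DOX(+) alone.

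Genes of the HDAC2 setting came first among the lists of genes read for their counts. Over all clusters 9.57% had a positive and 10.0% a negative difference, the shares to set beside the counts of each list below. The share that passed rose from 5.09% of the clusters with the lowest mean signal to 34.5% of those with the highest. The counts of the lists were not compared with genes of like signal, and no list was tested. The other class I histone deacetylases showed small values. HDAC1, the close relative of HDAC2, had a difference of -0.50 (adjusted p = 0.041 from limma), and it passed in 0 of the 8 fits that each left out 1 array, where the value lay between -0.53 and -0.47. HDAC3 differed by -0.10 and HDAC8 by 0.44, and neither passed. Of 14 measured subunits of HDAC1/2 complexes, 3 were positive, 2 negative and 9 did not pass, with a median of 0.14. SIN3B differed by 0.84 and GATAD2B, a NuRD subunit, by 0.80, while MBD2, a methyl-DNA binder of NuRD, differed by -1.01 and RCOR1, the CoREST scaffold, by -0.88.

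Of a list of 10 genes, 7 were measured under a single symbol, namely 6 that the study follows and GDF15, the host gene of MIR3189. Among these 7, 4 were positive and 3 did not pass. SLC2A3, which encodes the glucose transporter GLUT3 that the study centres on, was not among the 7. The 6 genes were chosen by the study on these cells and are not independent evidence of their direction. GDF15, a stress-induced cytokine, differed by 1.93 (adjusted p = 3.88e-05 from limma). APAF1, the apoptosome scaffold, differed by 1.01 and PARP1, a DNA damage sensor that caspases cleave, by 0.76. APAF1 had 6.05 and 6.24 in shHDAC2 DOX(+), 5.15 and 5.06 in shHDAC2 DOX(-), 6.29 and 6.31 in shControl DOX(+), and 6.37 and 6.16 in shControl DOX(-), so that both shHDAC2 DOX(+) arrays lay within or below the shControl arrays. BAX (-0.45), BBC3, which encodes PUMA (0.16), and HTRA2 (-0.20) did not pass. Of 11 measured pro-apoptotic genes 3 were positive, APAF1, BAK1 (1.07) and BCL2L11, which encodes BIM (1.02), and 1, PMAIP1, which encodes NOXA, was negative (-0.88). Of 8 anti-apoptotic genes, 2 were negative and 6 did not pass, with 0 to 2 negative when 1 array was left out.

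Around AHR, its partner ARNT did not pass (-0.11), nor did ARNT2 (0.49). TIPARP, an AHR-induced gene that feeds back on the receptor, was negative as AHR was (-1.35, adjusted p = 0.000507 from limma). TIPARP had 6.33 and 6.24 in shHDAC2 DOX(+), 7.60 and 7.49 in shHDAC2 DOX(-), 6.35 and 6.23 in shControl DOX(+), and 6.26 and 6.13 in shControl DOX(-). Only 4 of the 12 genes on this list were measured under a single symbol. Around ANKRD1, 6 of 13 measured YAP and TEAD targets or partners were positive and 1 was negative, with a median of 0.35 over the list. CRIM1 differed by 1.63 and ARHGEF17 by 1.51. The negative one was YAP1, the coactivator itself (-1.76, adjusted p = 0.000148), with 5.28 and 5.22 in shHDAC2 DOX(+), 7.09 and 7.01 in shHDAC2 DOX(-), 6.75 and 6.50 in shControl DOX(+), and 6.63 and 6.69 in shControl DOX(-). YAP1 is a gene in which shHDAC2 DOX(+) stood lowest, with a gap to shControl DOX(+) of -1.38 (adjusted p = 0.000948).

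The extracellular matrix genes went both ways. Of 16 measured matrix glycoproteins 6 were positive and 6 negative, with a median of -0.06. FN1, fibronectin, had 6.79 and 6.95 in shHDAC2 DOX(+), 10.79 and 10.79 in shHDAC2 DOX(-), 7.11 and 7.16 in shControl DOX(+), and 6.97 and 7.03 in shControl DOX(-), a difference of -4.05 (SE 0.154, adjusted p = 9.71e-07 from limma). LTBP1, which tethers latent TGF-beta in the matrix, differed by -3.94. NID1, the basement membrane protein nidogen 1, had 8.30 and 8.47 in shHDAC2 DOX(+), 4.04 and 3.55 in shHDAC2 DOX(-), 9.37 and 9.47 in shControl DOX(+), and 9.27 and 9.25 in shControl DOX(-), a difference of 4.43. Its relative NID2 differed by -3.23. Of 12 metalloproteases and their inhibitors, 6 were negative, among them TIMP3 (-3.98) and TIMP4 (-2.40), and 2 were positive, ADAM19 (2.23) and TIMP2 (0.93). The cross-linking enzymes LOX (-1.57) and LOXL1 (-1.21) were negative. Of 9 metallothioneins 3 were negative, MT1F, MT1X (-2.72) and MT1E (-2.35), 6 did not pass, and the median was -0.75.

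Of 12 desmosome and keratin genes 6 were positive and 0 negative, with a median of 0.66, and 4 or 5 were positive when 1 array was left out. PKP2, plakophilin 2, had 8.38 and 8.30 in shHDAC2 DOX(+), 3.85 and 3.81 in shHDAC2 DOX(-), 8.70 and 8.70 in shControl DOX(+), and 8.57 and 8.65 in shControl DOX(-), a difference of 4.42 (SE 0.148, adjusted p = 6.81e-07 from limma). DSP, desmoplakin, differed by 3.62, KRT18, keratin 18, by 3.60 and JUP, plakoglobin, by 3.22. A further cluster of KRT18 differed by 1.89. KRT14, a keratin counted among the epithelial markers and not on this list, was negative (-0.99), and its call was lost in 5 of the 8 fits that left out 1 array. Transcription factors of mesenchymal identity moved the other way in count, with 7 of 15 negative, 1 positive and a median of -0.48. The 4 largest were TBX15 (-3.14), TBX3 (-2.87), SNAI2, which encodes SLUG (-2.86), and PRRX1 (-2.00). SNAI2 had 7.34 and 7.48 in shHDAC2 DOX(+), 10.48 and 10.45 in shHDAC2 DOX(-), 7.78 and 7.93 in shControl DOX(+), and 7.95 and 8.14 in shControl DOX(-).

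Of 16 HOX and TALE homeobox genes, which set position along the body axis, 9 were positive, 0 negative and 7 did not pass, with a median of 0.66. The largest on this list were HOXB9 (3.08), HOXB3 (2.46), HOXD10 (2.15) and HOXB2 (1.59), while HOXB5 (4.48), which is not on it, differed more. HOXB3 had 7.49 and 7.53 in shHDAC2 DOX(+), 4.88 and 4.94 in shHDAC2 DOX(-), 7.64 and 7.83 in shControl DOX(+), and 7.57 and 7.61 in shControl DOX(-). The HOXB9 arrays of shHDAC2 DOX(-) were 5.67 and 4.45, which gave its difference an SE of 0.439. Of 19 neuroectoderm and glial factors, 4 were positive, led by the intermediate filament gene NES (1.90) and by SOX11 (1.29), and 4 were negative, led by PAX6 (-1.48). Leaving out 1 array gave 2 to 4 positive and 2 to 5 negative ones.

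Secreted signals and their receptors split within pathways. Of 10 genes of TGF-beta and BMP signalling 4 were positive and 4 negative. Both ends were BMP antagonists. NOG, noggin, had 8.38 and 8.50 in shHDAC2 DOX(+), 3.96 and 4.19 in shHDAC2 DOX(-), 8.13 and 8.09 in shControl DOX(+), and 8.04 and 8.04 in shControl DOX(-), a difference of 4.30 (adjusted p = 9.76e-07 from limma). GREM1 had 4.46 and 4.41 in shHDAC2 DOX(+), 9.86 and 10.01 in shHDAC2 DOX(-), 4.76 and 4.55 in shControl DOX(+), and 4.78 and 4.64 in shControl DOX(-). The ligand BMP2 differed by -1.69 and the signal transducer SMAD3 by -1.13.

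Of 18 Wnt regulators 3 were positive and 5 negative. The positive ones were the secreted inhibitors DKK1 (4.08) and DKK3 (2.96) and the R-spondin receptor LGR5 (3.23). DKK1 had 10.57 and 10.69 in shHDAC2 DOX(+), 6.40 and 6.66 in shHDAC2 DOX(-), 10.47 and 10.41 in shControl DOX(+), and 10.43 and 10.38 in shControl DOX(-). LEF1, a transcription factor of the pathway, differed by -1.71. Of 14 Notch genes 2 were negative, led by the ligand JAG1 (-2.11), and 2 positive, led by the receptor NOTCH1 (1.23). In each direction 1 or 2 passed when 1 array was left out.

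Of 13 EGFR ligands and MAPK feedback genes 4 were negative and 0 positive, with a median of -0.35. EREG, epiregulin, had 2.94 and 2.84 in shHDAC2 DOX(+), 8.25 and 8.49 in shHDAC2 DOX(-), 3.09 and 2.65 in shControl DOX(+), and 2.71 and 2.98 in shControl DOX(-). SPRY2, a feedback inhibitor of receptor tyrosine kinases, differed by -2.52, DUSP6, an ERK phosphatase, by -2.34 and ERRFI1, an EGFR inhibitor, by -0.80. EGFR itself did not pass (0.34). Of 15 immediate early and AP-1 genes 5 were negative, among them FOS (-2.06) and JUN (-1.51), and 3 were positive. Without 1 array 4 to 6 were negative and 0 to 2 positive.

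Of 14 NF-kB targets and inflammatory cytokines 9 were negative and 0 positive, with a median of -1.28, and 6 to 9 were negative when 1 array was left out. CXCL8, which encodes the neutrophil attractant interleukin 8, had 3.13 and 3.74 in shHDAC2 DOX(+), 8.97 and 8.47 in shHDAC2 DOX(-), 2.82 and 2.51 in shControl DOX(+), and 3.04 and 2.81 in shControl DOX(-), a difference of -5.03 (SE 0.328, adjusted p = 1.38e-05 from limma). PTGS2, cyclooxygenase 2, differed by -3.48, CSF3, the granulocyte growth factor, by -2.97 and the adhesion molecule ICAM1 by -1.89. Of 12 interferon-stimulated genes 2 were negative (1 to 3 without 1 array) and 10 did not pass, with a median of -0.02. The CXCL8 promoter is shown as that of a gene long known for an AP-1 site, from the same RefSeq annotation, with the match of TGANTCA at -137 from the start in capitals.
CXCL8 promoter, chr4:73740319-73740618, plus strand: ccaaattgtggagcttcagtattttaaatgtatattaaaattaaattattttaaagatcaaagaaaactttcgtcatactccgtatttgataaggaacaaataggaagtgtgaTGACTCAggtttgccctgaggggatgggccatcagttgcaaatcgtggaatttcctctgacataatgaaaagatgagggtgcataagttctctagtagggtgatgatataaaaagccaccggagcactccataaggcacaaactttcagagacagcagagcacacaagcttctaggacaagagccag
This motif was in 5.92% of all 10749 promoters, in 5.28% of those of genes with a positive difference and in 5.25% of those of genes with a negative one. The same window held 0 matches for AHR, EREG and TNC, which says only that these letters are not there.

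Metabolic genes split by pathway. Of 14 hypoxia-inducible genes 12 were negative and 0 positive, with a median of -2.03, and of 9 glycolysis genes 6 were negative and 0 positive, with a median of -1.04. VEGFA, the angiogenic growth factor, had 5.19 and 5.33 in shHDAC2 DOX(+), 8.79 and 8.95 in shHDAC2 DOX(-), 5.82 and 5.81 in shControl DOX(+), and 5.36 and 5.35 in shControl DOX(-). Its difference was -4.07 (SE 0.159, adjusted p = 9.76e-07 from limma). Between the lines on doxycycline, 1 of the 14 was higher and 2 were lower in shHDAC2 cells, VEGFA among the lower (-0.56, adjusted p = 0.032). HK2, hexokinase 2, had 4.40 and 4.46 in shHDAC2 DOX(+), 7.56 and 7.95 in shHDAC2 DOX(-), 4.33 and 4.15 in shControl DOX(+), and 4.20 and 4.36 in shControl DOX(-), and of the 9 glycolysis genes 0 differed between the lines with doxycycline.

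The mitochondrial lists, read because doxycycline binds mitochondrial ribosomes, had medians near 0. An effect of the drug shared by both lines cancels in the difference, so these medians cannot show one. In shControl cells the median response was -0.10 for mitochondrial ribosomal protein genes, -0.05 for respiratory chain subunits and -0.02 for the TCA cycle list. Of 21 mitochondrial ribosomal protein genes 4 were positive, led by MRPS10 (1.04), and 17 did not pass, with a median of 0.11. Of 8 respiratory chain subunits 0 passed, with a median of 0.15. Of 11 genes of the TCA cycle and pyruvate dehydrogenase 4 were positive and 2 negative, and 0 to 4 were positive when 1 array was left out. The 13 genes of the ATF4 response, which rises under mitochondrial stress, had a median of 0.01. PSPH, an enzyme of serine synthesis (0.98), was the 1 positive gene, and VLDLR, a lipoprotein receptor (-3.41), and SESN2, a stress-induced sestrin (-1.73), were the 2 negative ones. ATF4 (-0.33), ASNS (-0.11) and DDIT3 (0.01) did not pass.

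Of 9 cholesterol synthesis genes 4 were positive, led by HMGCS1 (1.94) and DHCR7 (1.30), and INSIG1, which restrains the pathway, was negative (-1.33). Of 19 mitosis genes 2 were negative (1 or 2 without 1 array), with a median of -0.21, and of 19 DNA replication genes 6 were negative and 3 positive. With 1 array left out, 2 to 5 of the replication genes were negative and 1 to 3 positive. Of 10 p53 targets 3 were positive, led by GDF15, and SESN2 was negative, with a median of 0.15. Of 7 unfolded protein response genes 2 were negative, SEL1L (-1.27) and XBP1 (-0.99), and of 5 integrin and focal adhesion genes 1, the talin gene TLN1 (-1.08). CDKN2A and MTAP, at the chromosome 9p21 tumour suppressor locus, and the neuronal marker SYP did not pass.

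**Figure D4:**
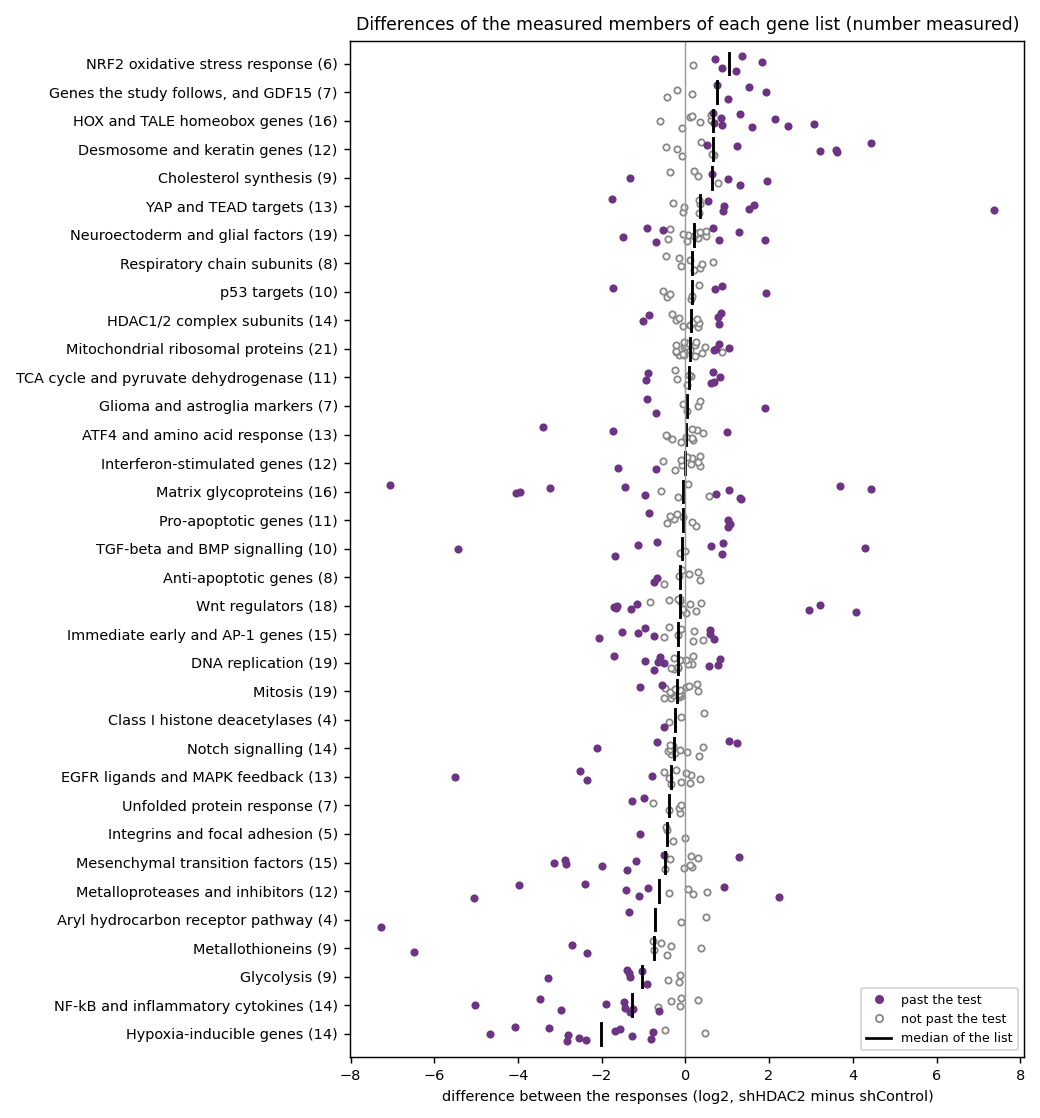
Difference between the responses on the log2 scale for each measured gene of the 35 lists with at least 4 measured genes, ordered by the list's median (black bar), with filled points for genes that passed by limma and open points for those that did not. Of the lists drawn, hypoxia-inducible, NF-kB and glycolysis genes lie lowest, with medians of -2.03, -1.28 and -1.04, and NRF2 genes highest, with 1.05, while collagens and cross-linking, with 3 measured genes and a median of -1.21, is not drawn.

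In 336 of the 16098 clusters the difference passed and shHDAC2 also differed from shControl with doxycycline, 84 higher and 252 lower in shHDAC2 cells. They are part of the 590 that differed with doxycycline, and both tests use the same arrays with doxycycline. ANKRD1, SUCNR1 and VEGFA are in this set too, although shHDAC2 DOX(-) stood farthest from the other groups in each. In the 336 clusters the lines treated with doxycycline, and not the untreated ones alone, stood apart by test. The choice of the genes named from them was made after seeing their values. Of 6 measured genes of the NRF2 oxidative stress response 5 were positive, with a median of 1.05, and 3 of the 6 were also higher in shHDAC2 cells with doxycycline. HMOX1, heme oxygenase 1, had 8.91 and 9.08 in shHDAC2 DOX(+), 7.61 and 7.89 in shHDAC2 DOX(-), 5.82 and 5.65 in shControl DOX(+), and 5.54 and 5.87 in shControl DOX(-). Here both shHDAC2 groups lay above both shControl groups. The difference was 1.21 (SE 0.219, adjusted p = 0.00471 from limma) and the gap with doxycycline 3.26 (adjusted p = 8.43e-05). SRXN1, sulfiredoxin, differed by 1.84 and TXNRD1, thioredoxin reductase, by 1.35.

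LGR5 had 6.35 and 6.44 in shHDAC2 DOX(+), 3.43 and 3.22 in shHDAC2 DOX(-), 3.64 and 3.94 in shControl DOX(+), and 3.93 and 3.95 in shControl DOX(-), and so was high on the shHDAC2 DOX(+) arrays alone. It was higher than in shControl DOX(+) by 2.61 (adjusted p = 8.43e-05 from limma). GDF15 had 9.31 and 9.25 in shHDAC2 DOX(+), 7.25 and 7.25 in shHDAC2 DOX(-), 7.74 and 7.78 in shControl DOX(+), and 7.60 and 7.72 in shControl DOX(-), again highest in shHDAC2 DOX(+). CLDN1, a tight junction claudin, differed by 2.02 and was higher than in shControl DOX(+) by 1.37. KRTAP2-3, a keratin-associated protein gene, differed by 3.43, with 6.30 and 6.34 in shHDAC2 DOX(+), 3.66 and 4.08 in shHDAC2 DOX(-), 4.42 and 4.42 in shControl DOX(+), and 5.41 and 5.40 in shControl DOX(-). Its shControl response of -0.98 was among the largest there and did not pass (adjusted p = 0.550).

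TYMS, thymidylate synthase, had 7.72 and 7.65 in shHDAC2 DOX(+), 9.47 and 9.47 in shHDAC2 DOX(-), 9.30 and 9.23 in shControl DOX(+), and 9.34 and 9.34 in shControl DOX(-). It was low in shHDAC2 DOX(+) alone, with a difference of -1.71 (SE 0.145, adjusted p = 6.77e-05 from limma) and a gap with doxycycline of -1.58 (adjusted p = 0.000301). LRRC58 followed the same pattern, with 6.35 and 6.50 in shHDAC2 DOX(+) and 8.16 to 8.42 on the other 6 arrays, and DEPDC1 had 5.20 and 5.39 in shHDAC2 DOX(+) and 6.82 to 7.48 on the others. CEMIP, which degrades hyaluronan, had 4.33 and 4.22 in shHDAC2 DOX(+), 5.83 and 5.92 in shHDAC2 DOX(-), 6.42 and 6.57 in shControl DOX(+), and 5.86 and 5.81 in shControl DOX(-). EDIL3, an integrin-binding matrix protein, differed by -3.53, with a shControl response of 0.78 that did not pass.

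The response of shControl cells was larger in size than that of shHDAC2 cells in 4421 of all 16098 clusters. Among the 3156 clusters whose difference passed, this held in 78, 37 positive and 41 negative. CFI, complement factor I, had 4.79 and 4.66 in shHDAC2 DOX(+), 4.98 and 5.46 in shHDAC2 DOX(-), 5.63 and 5.21 in shControl DOX(+), and 4.47 and 4.53 in shControl DOX(-). Its difference was -1.42 (SE 0.261, adjusted p = 0.00503 from limma), from a response of -0.50 in shHDAC2 cells and 0.92 in shControl cells, neither of which passed. LINC00707, a long non-coding RNA gene, had a difference of 1.15, with responses of 0.48 in shHDAC2 cells and -0.67 in shControl cells. HHIPL2 differed by -0.99. The microRNA gene MIR892A differed by 1.15, with signals of at most 2.49 on every array. The calls of HNRNPA3 (1.24), ZNF682 (1.18), MIR100 (-1.04) and IGBP1P1 (-1.04) were lost in 3 to 6 of the 8 fits that left out 1 array, with values of 0.93 to 1.55 for HNRNPA3, 0.85 to 1.51 for ZNF682, -1.39 to -0.68 for MIR100 and -1.29 to -0.79 for IGBP1P1 over those fits.

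The small RNA genes named below were picked with their values in view. The array probes read the region of the precursor, so mature microRNA was not measured. Of 65 microRNA genes whose difference passed, 60 have a mature sequence in RefSeq's GRCh38.p14 table. The let-7 genes are shown because they share a seed, the bases 2 to 8 that pair with targets, while their differences ran in both directions. Capitals mark the seed.
let-7a-5p: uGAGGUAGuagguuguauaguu
let-7i-5p: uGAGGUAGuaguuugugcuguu
let-7d-5p: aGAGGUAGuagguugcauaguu
let-7f-5p: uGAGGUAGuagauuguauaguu
miR-196b-5p: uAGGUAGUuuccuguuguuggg
miR-3189-3p: cCCUUGGGucugaugggguag
The seed of miR-196b-5p, AGGUAGU, overlaps that of let-7 with an offset of 1 base. miR-3189-3p is one arm of MIR3189, and the other arm is not shown.

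MIRLET7A2 (chromosome 11) had a difference of -2.16 (SE 0.384, adjusted p = 0.00433 from limma) and MIRLET7I (chromosome 12) of -1.05 (adjusted p = 0.00295). MIRLET7A2 had 3.02 and 3.69 in shHDAC2 DOX(+), 4.72 and 4.57 in shHDAC2 DOX(-), 4.39 and 3.58 in shControl DOX(+), and 3.14 and 3.09 in shControl DOX(-). MIRLET7I had 4.41 and 4.12 in shHDAC2 DOX(+), 5.35 and 5.34 in shHDAC2 DOX(-), 4.38 and 4.38 in shControl DOX(+), and 4.44 and 4.37 in shControl DOX(-). The neighbours MIRLET7A1 (0.77), MIRLET7F1 (1.06) and MIRLET7D (0.99) on chromosome 9 were positive. They kept the call in 2 or 3 of the 8 fits that left out 1 array, as MIRLET7A3 (-0.65) did in 1, and their values over those fits ran from 0.58 to 0.97 for MIRLET7A1, 0.77 to 1.34 for MIRLET7F1, 0.73 to 1.24 for MIRLET7D and -0.76 to -0.53 for MIRLET7A3. MIRLET7A1, MIRLET7A2 and MIRLET7A3 give the same let-7a-5p and had differences of 0.77, -2.16 and -0.65. MIRLET7E, MIRLET7C, MIRLET7G and MIRLET7F2 did not pass.

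MIR196B, which lies among the HOXA genes, had 6.51 and 6.66 in shHDAC2 DOX(+), 2.88 and 2.89 in shHDAC2 DOX(-), 6.89 and 7.16 in shControl DOX(+), and 6.33 and 6.36 in shControl DOX(-), a difference of 3.02 (SE 0.177, adjusted p = 7.78e-06 from limma). MIR3189, inside GDF15, had 5.31 and 5.48 in shHDAC2 DOX(+) and 3.46 and 2.64 in shHDAC2 DOX(-). Its shControl arrays had 5.28 and 4.86 with doxycycline and 4.21 and 4.24 without it. The difference of MIR3189 was 1.51, and between 1.09 and 1.92 when 1 array was left out. Its call was lost when shHDAC2 DOX(+) replicate 2 (1.42) or shControl DOX(+) replicate 2 (1.30) was left out. Between the lines on doxycycline MIR3189 had a gap of 0.33, which did not pass (adjusted p = 0.556 from limma). VTRNA2-1, a vault-related non-coding RNA, had 2.55 and 1.89 in shHDAC2 DOX(+), 6.66 and 6.26 in shHDAC2 DOX(-), 2.35 and 2.38 in shControl DOX(+), and 2.57 and 1.96 in shControl DOX(-), a difference of -4.34. Of 14 clusters annotated as snRNA, 12 passed (85.7%), all 12 positive. All 12 were of SNAR genes, near-identical copies of a small non-coding RNA. Some clusters of SNAR-C1 and some of SNAR-B1 had identical values, so the 12 cannot be counted apart. SNAR-H differed by 1.23 and SNAR-G2 by 1.13.

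Markers of cell types were read for the labelled line. Of 7 glioma and astroglia markers, NES was positive (1.90), VIM (-0.92) and CD44 (-0.71) were negative, and GFAP, S100B, SOX2 and OLIG2 did not pass. VIM had 9.34 and 9.39 in shHDAC2 DOX(+), 10.27 and 10.34 in shHDAC2 DOX(-), 9.68 and 9.73 in shControl DOX(+), and 9.67 and 9.77 in shControl DOX(-), and was high throughout. S100B lay between 2.68 and 3.26 in the 4 group means, below the median of all values. The call of CD44 was lost when shControl DOX(+) replicate 1 or shControl DOX(-) replicate 2 was left out (-0.63 in both fits). LUM, lumican, a fibroblast proteoglycan, was high in shHDAC2 DOX(-) alone, with 2.66 and 2.68 in shHDAC2 DOX(+), 7.62 and 7.27 in shHDAC2 DOX(-), 3.28 and 3.21 in shControl DOX(+), and 2.90 and 3.14 in shControl DOX(-), a difference of -5.01. The other measured fibroblast and pericyte markers, DCN (-0.18) and RGS5 (0.52), did not pass. Of the 3 endothelial, 3 epithelial and 1 immune markers measured, KDR (-1.43) and KRT14 (-0.99) passed, and their calls were lost in 2 and 5 of the 8 fits that left out 1 array, where KDR lay between -1.84 and -1.02 and KRT14 between -1.19 and -0.79. These lists had medians between 2.88 and 3.98 in every group, and the part of other cell types in the differences was not tested.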

How the data were processed

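Total RNA of the 8 samples was labelled with the GeneChip WT kits. For extraction the labels name Trizol, and the methods also name an RNeasy kit. The authors ran RMA in Affymetrix Expression Console, which corrects background and makes the arrays alike in distribution, and the log2 signals they deposited were used unchanged. Such values cannot show a shift common to most transcripts. Tool versions and the genome build: not given in the sources used here. Of 53617 rows, the 37519 without exactly 1 gene symbol in the platform annotation were left out, and 779 genes have several clusters, of which the one with the highest mean represents the gene.

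The model had 1 mean per group over 8 arrays, fitted with limma 3.58.1 in R 4.3.3 (4 residual and 4.83 prior degrees of freedom), with Benjamini-Hochberg adjustment over 16098 clusters and a threshold of adjusted p under 0.05, two-sided. The number of arrays limits the precision. Named genes are HDAC2, AHR and ANKRD1, the 10 highest and 10 lowest differences, the 6 highest and 6 lowest with all 4 means at or above the median, the 4 highest and 4 lowest with the larger shControl response, and up to 4 members of each of 42 lists, or the 2 with the highest mean where fewer than 2 passed; other names in the lists were added after their values were seen. The members and lists were chosen with earlier results of these data known. Alternatives were the replicate block, leaving out each array, every row, 1 cluster per gene, a signal filter, other scalings, other variance models, the methods' t-test and a minimum size of 1.5-fold. That t-test was run with the variance pooled over the 4 groups. On simulated data with 200 changed clusters the step recovered 1.49% of differences of 0.5, 58.2% of 1 and 100% of 2, with 7 false among 113 calls. The data gave 3156 calls, and the adjustment depends on how many clusters change, so these rates need not hold for the data.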

Additional observations from a re-analysis of the deposited data

Results flagged for a closer look

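By the test of the difference itself, 3156 transcript clusters responded to doxycycline unequally in shHDAC2 and shControl cells. Of the 37519 rows left out of the report for want of a single gene symbol, 2025 (5.4%) differed in a separate limma fit over every row of the table. In that fit 3971 rows differed in all, of which 1946 were among the 16098 clusters with a single symbol.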

How the results depend on the processing

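Of 162 named genes that passed, 137 did so in all 8 fits that left out 1 array, and 0 named genes changed direction past the threshold in any setting. Leaving out 1 array, the difference passed in 2290 to 2715 clusters, fewest without shControl DOX(+) replicate 2, the shHDAC2 response in 3844 to 4709 and the shControl response in 0. Leaving out both shHDAC2 DOX(-) arrays would remove the contrast. With the replicate block the difference passed in 3340 clusters and the shHDAC2 response in 5175; same-numbered arrays deviated with correlations of 0.01 to 0.21, and with 2 numbers the arrays share only a number. Over every row, 3971 differences passed, 1946 of them among the 16098 clusters, and 7828 shHDAC2 responses. With a minimum of 1.5-fold, 895 differences and 1342 shHDAC2 responses passed. The methods' t-test gave 2102 differences and 2 shControl responses after adjustment, and 973 shControl responses before it. A variance trend with robust moderation gave 1 shControl response. Of the calls of named genes, 64 were lost at 1.5-fold, 30 by the adjusted t-test and 25 over every row. The causes of these changes were not tested. Testing 1 cluster per gene, the signal filter, a second quantile normalization, median centring and array weights kept the number of differences within 1.5 times of 3156. Low signals limit the sizes of the largest differences, and 2 arrays per group limit differences under 1 on the log2 scale.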
